A study of Mus musculus with 6 samples.

Results

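The genes of cristae organisation were examined in mouse embryonic fibroblasts (MEFs) in which the mitofusins had been activated or inhibited. The set held 10 genes chosen by name from the 55291 listed. Immt, Chchd3, Chchd6, Apoo and Apool encode subunits of the mitochondrial contact site and cristae organizing system (MICOS), Samm50 encodes its outer membrane partner, Chchd2 and Chchd10 encode intermembrane space proteins bound to MICOS, and Phb and Phb2 encode the prohibitins. RNA-seq was performed on polyA RNA from 3 groups of WT MEFs with 2 libraries each. The groups received vehicle, MASM7, a small molecule that activates mitofusins, at 1 μM for 6 h, or MFI8, a mitofusin inhibitor, at 20 μM for 6 h. The concentrations and times came from the study's text and not from the sample labels, and the duration of the vehicle treatment was not used here. The 2 libraries of a group were described as independent biological replicates of cultured WT cells, and no line or passage was named. Since the compounds were given at different concentrations, compound and concentration cannot be told apart.

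Cristae are the folds of the inner mitochondrial membrane that carry the respiratory chain and ATP synthase. MICOS sits at the narrow crista junctions, bends the membrane there and ties it to the outer membrane through the sorting and assembly machinery. Prohibitins form large rings in the inner membrane that act as scaffolds for lipids and proteases, including those that process OPA1, the fusion GTPase of the inner membrane, while MFN1 and MFN2 are the fusion GTPases of the outer membrane.

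The libraries held between 22791792 and 30677751 counts on genes, with 20599 to 21558 genes detected. Expression is given as the deposited, length-scaled TPM where genes are compared with each other, and as CPM, the counts scaled to library size with factors from the trimmed mean of M values (TMM), where 1 gene is compared between libraries. Both are shares of the RNA counted, so that fewer cells of a type and less RNA per cell cannot be told apart. Of the 9 fibroblast markers, 8 were above 1 TPM in every library, with summed levels of 5571 to 6930 TPM with vehicle, 6129 to 6972 with MASM7 and 5424 to 6589 with MFI8. Thy1 was the marker below that level. Summed epithelial markers reached at most 1.69 TPM, endothelial 0.428, muscle 1.53, pluripotency 0.07 and leukocyte markers 11.9, and their part in the results was not tested. Of the leukocyte markers, Cd68 stood at 8.91 to 11.9 TPM, Ptprc reached at most 0.013 TPM and Adgre1 had 0 counts in every library. The share of counts on mitochondrially encoded genes was 1.66% and 1.82% in the vehicle libraries, 1.61% and 1.51% after MASM7, and 1.37% and 1.43% after MFI8. Neither mitofusin transcript passed the test. Mfn1 stood at 111 and 109 CPM in the vehicle libraries, at 102 and 100 after MASM7 and at 106 and 101 after MFI8. Mfn2 stood at 119 and 119, 117 and 122, and 123 and 126 CPM in the same order. Both MASM7 libraries and both MFI8 libraries were below vehicle for Mfn1, with log2 fold changes of -0.12 and -0.09 (edgeR adjusted p = 0.488 and 0.61). The first was -0.08 with offsets for GC content and length in each library, and the second was -0.05 without MFI8 replicate 2.

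Positions are those of GENCODE vM21 on GRCm38. Immt, the membrane-anchored scaffold of MICOS, lies at chr6:71831331-71877388 on the plus strand. Chchd3 (chr6:32790976-33060260, minus strand) and its paralog Chchd6 (chr6:89383146-89595652, minus strand) encode subunits of the intermembrane space that bind the Immt product. Apoo (chrX:94367117-94417093) and Apool (chrX:112311334-112372755), both on the plus strand, encode apolipoprotein O family subunits embedded in the inner membrane. Samm50 (chr15:84192241-84217267, plus strand) encodes the β-barrel insertase of the outer membrane. Chchd2 (chr5:129881156-129887470, minus strand) and Chchd10 (chr10:75933130-75937747, plus strand) encode paired small proteins with twin CX9C motifs. Phb (chr11:95666957-95680773) and Phb2 (chr6:124712336-124716950), on the plus strand, encode the alternating subunits of the prohibitin ring. Counting was by exon and its strand setting was not given in the sources used here. Chchd10 shares 155 exonic bases with Mmp11 on the opposite strand, which had 498 to 923 counts, and the processed pseudogene Apoo-ps had 62 to 96 counts, up to 31.1% of those of Apoo, so the values of Chchd10 and Apoo are uncertain. Chchd2-ps reached at most 0.886% of the counts of Chchd2.

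Promoter windows from RefSeq (GRCm38.p6, 250 bases before to 50 after the start) were matched for 9 members, with 10 windows in all. Chchd2 had no window and was not searched. The 120 bases before the start are shown, 5′ to 3′ on the gene's strand, for Chchd6, Phb and Phb2, which had the smallest p with MASM7 and were picked for display after their values were seen. Capitals mark CCAAT, the NF-Y motif, or CTTCCGG, the reverse complement of the ETS motif CCGGAAG.
Chchd6, chr6:89595653-89595772, minus strand: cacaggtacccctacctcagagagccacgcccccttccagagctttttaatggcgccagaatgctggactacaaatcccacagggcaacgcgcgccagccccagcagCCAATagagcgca
Phb, chr11:95666837-95666956, plus strand: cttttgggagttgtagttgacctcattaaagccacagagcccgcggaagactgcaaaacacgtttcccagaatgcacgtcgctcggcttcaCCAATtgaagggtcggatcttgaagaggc
Phb2, chr6:124712169-124712288, plus strand: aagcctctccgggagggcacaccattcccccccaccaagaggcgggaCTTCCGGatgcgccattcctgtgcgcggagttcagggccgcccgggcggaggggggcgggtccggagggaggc

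These 3 promoters did not share a motif of the kinds searched. CCAAT or its reverse complement ATTGG was present 13 and 134 bases before the start of Chchd6 and 29 bases before that of Phb, and was not in the Phb2 window. CCGGAAG or CTTCCGG was found 73 and 233 bases before the start of Phb2 and again 3 bases after it, and in neither of the other promoters shown. Of the remaining members with a window, Immt held CCAAT and CCGGAAG, Chchd3 held both, Apool and Samm50 held CCAAT alone, and the windows of Apoo and Chchd10 held neither. No member's window held GCATGCGC or its reverse complement GCGCATGC, the core of the NRF1 motif. Over all 32851 promoter windows searched on both strands, 37.4% held CCAAT, 8.86% held CCGGAAG and 2.71% held the NRF1 core. None of the 3 motifs contains another, and a match is a description of the sequence.

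In these fibroblasts 9 of the 10 genes were expressed, across a range from Phb2 at the top to Apool. The mean TPM with vehicle was 289 ± 9.1 for Phb2, 229 ± 3.04 for Chchd2 and 211 ± 11.7 for Phb (SD, n = 2). These levels exceeded those of 96.2%, 94.7% and 94.1% of the 14290 genes tested. The MICOS scaffold and its partners followed, with 125 ± 6.65 TPM for Chchd3, 98.5 ± 1.9 for Immt and 84.8 ± 0.152 for Samm50 (SD, n = 2). Apoo at 32.9 ± 2.5, Chchd6 at 24.8 ± 0.73 and Apool at 17.8 ± 0.833 TPM were lower (SD, n = 2), and Apool lay above 48.7% of tested genes. Neighbours in this order did not overlap between the 2 vehicle libraries. Over all 6 libraries, Chchd2 and Phb overlapped, with Chchd2 the higher in 5 of 6, and so did Apoo and Chchd6, with Apoo the higher in 5 of 6. Each paralog pair was therefore uneven at the level of RNA. Chchd3 exceeded Chchd6 by 3.9 to 5.14 times in TPM, and Apoo exceeded Apool by 1.7 to 2.02 times. Per kilobase of the longest transcript these ratios were 6.18 to 8.15 and 1.22 to 1.46, and that of Apoo rests on uncertain counts.

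**Figure D1:**
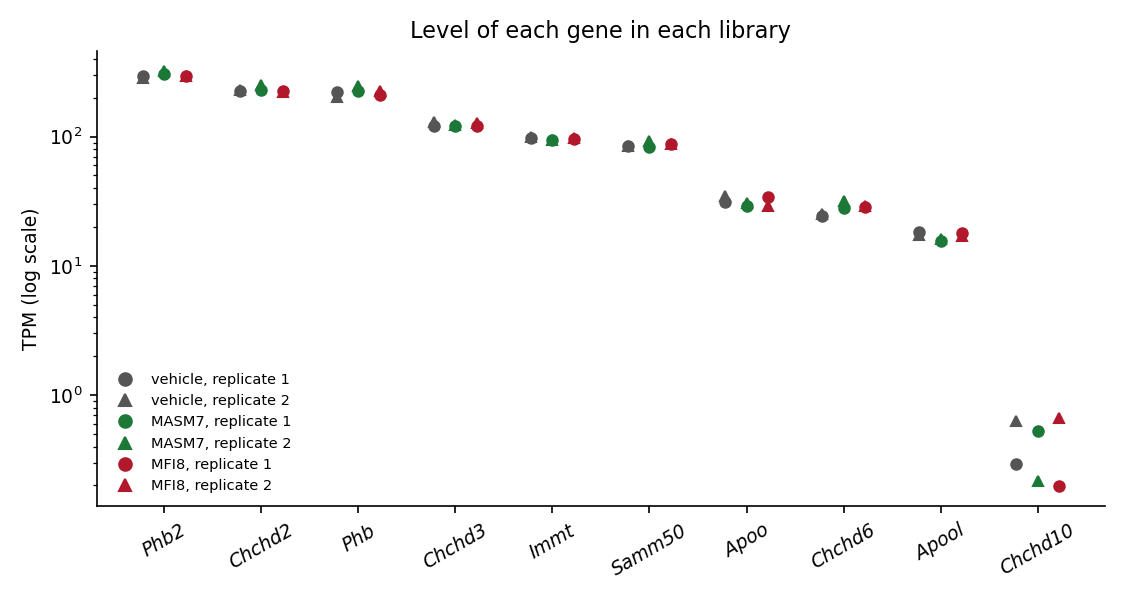
TPM on a log axis for each of the 10 genes in each library, ordered by the vehicle mean; colour gives the group and shape the replicate. Phb2 lies at 283 to 319 TPM in all 6 libraries, while Chchd10 lies below 1 TPM in each.

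The order depended on the gene length behind TPM. Relative to Phb2, the length implied by counts and TPM was 3.05 for Immt, the same as the ratio of all exonic bases in the annotation (11353 against 3718 bases), while the longest transcripts gave a ratio of 1.46 (3476 against 2373 bases). The implied and the exonic ratio were equal to 3 digits for all 10 genes. Immt, with 14 annotated transcripts, had the widest gap between the lengths. Per kilobase of the longest transcript, an alternative chosen after the data were seen, the vehicle levels were 128 ± 5.19 CPM for Phb2, 93.3 ± 6.02 for Phb, 91 ± 0.937 for Immt, 70.9 ± 0.302 for Chchd2 and 66.5 ± 2.92 for Chchd3 (SD, n = 2). On that scale Immt stood 3rd in place of 5th, and Phb and Immt overlapped between the vehicle libraries (97.6 and 89, against 90.4 and 91.7). Chchd6 at 8.29 ± 0.169 and Apoo at 9.6 ± 0.642 kept their places of 8 and 7 (SD, n = 2).

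Chchd10 was near the limit of detection. It had 3 and 7 counts in the vehicle libraries, 7 and 3 after MASM7, and 2 and 9 after MFI8, or 0.293 and 0.628, 0.526 and 0.218, and 0.199 and 0.667 TPM. All 3 groups overlapped, and the gene was removed by the filter on low counts and was not among the genes tested in edgeR. Its paired gene Chchd2 was between 333 and 1146 times higher in TPM in the same libraries.

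With MASM7, none of the 9 tested genes passed the test against vehicle, and the intervals of Chchd6, Phb and Phb2 lay above a fold of 1. The largest fitted difference was that of Chchd6, the minor paralog of Chchd3. It stood at 17.5 and 18 CPM with vehicle and at 20.2 and 22.9 CPM with MASM7. Both MASM7 libraries were above both vehicle libraries. The fold was 1.21, with a 95% interval of 1.05 to 1.4 (log2 fold change 0.28, standard error 0.0921, edgeR adjusted p = 0.473). Chchd3 itself stood at 99.9 and 106 CPM with vehicle and at 99.2 and 102 with MASM7, a log2 fold change of -0.03 with overlapping groups. The ratio of Chchd3 to Chchd6 in TPM was 4.97 and 5.14 with vehicle and 4.28 and 3.9 with MASM7.

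The prohibitins were also higher in both MASM7 libraries. Phb stood at 176 and 160 CPM with vehicle and at 180 and 199 CPM with MASM7. Its fold was 1.13, with a 95% interval of 1.02 to 1.26 (log2 fold change 0.18, standard error 0.0687, edgeR adjusted p = 0.477). The margin between the groups was narrow, since MASM7 replicate 1 exceeded vehicle replicate 1 by 0.04 in log2 CPM and replicate 2 exceeded its counterpart by 0.31. Phb2 stood at 313 and 296 CPM with vehicle and at 324 and 340 CPM with MASM7, a fold of 1.09 with a 95% interval of 1.01 to 1.18 (log2 fold change 0.13, standard error 0.0528, edgeR adjusted p = 0.479). The longest transcripts of Phb, Phb2 and Chchd6 have 55.5%, 53.4% and 52.4% GC, and the part of GC content in these differences was not tested. With offsets for GC content and length in each library, an alternative chosen after the data were seen, the log2 fold changes were 0.08 for Phb and 0.06 for Phb2 in place of 0.18 and 0.13, and 0.23 for Chchd6. Without MASM7 replicate 2, they were 0.10 for Phb, 0.09 for Phb2 and 0.19 for Chchd6, and without vehicle replicate 2 that of Phb was 0.11.

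Among the other members, Chchd2 was higher in both MASM7 libraries (149 and 163 CPM against 146 and 147 with vehicle), a log2 fold change of 0.09 with a 95% interval of -0.04 to 0.22, which was 0.02 without MASM7 replicate 2 and 0.15 without MASM7 replicate 1. Apool was lower in both, at 15.5 and 16.1 CPM against 18.2 and 16.9, a log2 fold change of -0.15 with a 95% interval of -0.36 to 0.05, which became -0.06 with the GC and length offsets and -0.10 without vehicle replicate 1. For Immt, 306 and 309 CPM with MASM7 were below 314 and 319 with vehicle, but the log2 fold change of -0.04 became 0.06 with the GC and length offsets. The groups overlapped for Apoo (10.5 and 11.1 against 11.1 and 12.2 CPM) and Samm50 (156 and 173 against 158 and 156 CPM).

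Counted over the set, 5 of the 9 tested genes had a higher and 4 a lower fitted value with MASM7, with a median log2 fold change of 0.06 beside 0.00 over all tested genes. This median was -0.01 without MASM7 replicate 2 and 0.14 without MASM7 replicate 1. No member had an adjusted p under 0.05, nor did any of the 14290 genes (0%). At an unadjusted p under 0.05, 3 of the 9 members were higher and 0 lower, where 10.2% of all genes passed in either direction. With the GC and length offsets the count was 1 higher, Chchd6, against 5.3% of all genes, and the intervals of Phb and Phb2 then included 0. With the replicate number as a block beside the offsets, it was again 3 members higher and 0 lower. Of all 14290 genes, 1062 were higher and 903 lower at that threshold in the same fit. Limma on TPM called 0 genes, the DESeq2 Wald test called 2 genes and 0 members at an adjusted p under 0.05, and 2 members passed its unadjusted threshold, as did 4.89% of all genes. Libraries did not overlap with vehicle for 6 of 9 members (4 higher, 2 lower), against 42.8% of all genes. With the replicate number as a block, 554 genes (3.88%) passed and still 0 members, the smallest adjusted p being 0.052 for Phb and 0.053 for Chchd6.

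**Figure D2:**
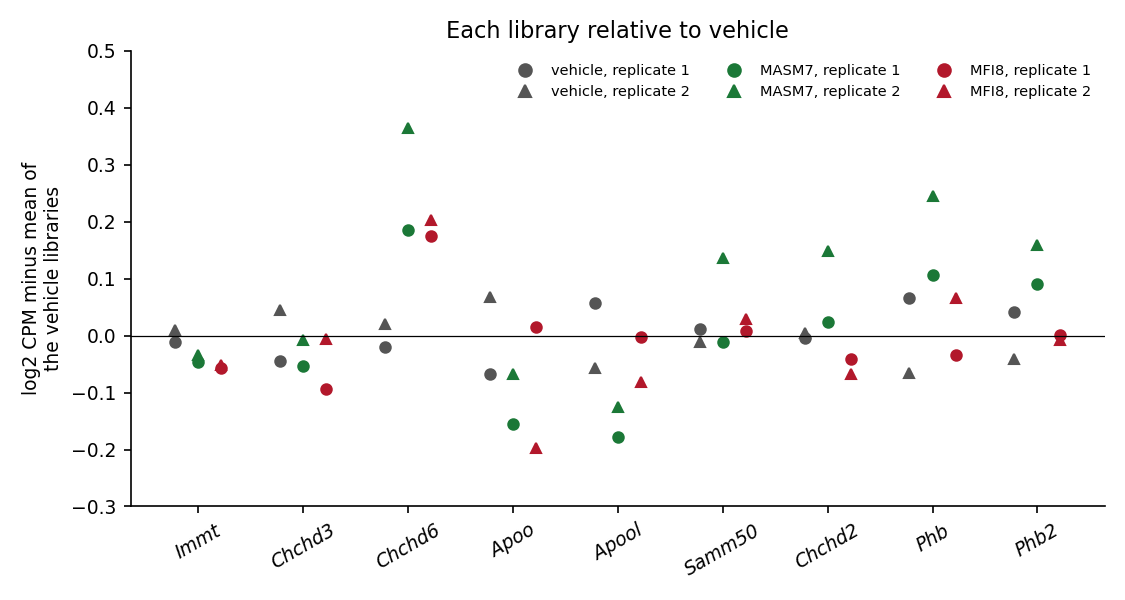
Log2 CPM of each library minus the mean of the 2 vehicle libraries, for the 9 tested genes; colour gives the group and shape the replicate. MASM7 replicate 2 is the highest library for Chchd6, Phb, Phb2, Chchd2 and Samm50, and the 6 libraries of Immt lie within 0.07 of each other.

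With MFI8, no member passed the test against vehicle. Chchd6 had the largest difference again, with 20 and 20.4 CPM against 17.5 and 18 with vehicle. Both MFI8 libraries were above both vehicle libraries. The fold was 1.14, with a 95% interval of 0.987 to 1.32 (log2 fold change 0.19, standard error 0.0932, edgeR adjusted p = 0.536). The ratio of Chchd3 to Chchd6 in TPM was 4.19 and 4.37 with MFI8, below both vehicle libraries. MASM7 and MFI8 were each compared with the same vehicle libraries, so the higher Chchd6 values with both compounds rest on shared controls.

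The prohibitin transcripts with MFI8 overlapped those with vehicle. Phb stood at 164 and 176 CPM against 176 and 160 with vehicle, a log2 fold change of 0.02 with a 95% interval of -0.14 to 0.17. Phb2 stood at 305 and 303 CPM, between the vehicle values, a log2 fold change of -0.00 with a 95% interval of -0.12 to 0.11. Differences inside these bounds were not detectable with 2 libraries in a group. Immt, at 304 and 305 CPM, and Chchd2, at 142 and 140 CPM, were below both vehicle libraries, each with a log2 fold change of -0.06, which became 0.01 for Immt and -0.03 for Chchd2 with the GC and length offsets. Their 95% intervals ran from -0.16 to 0.05 and from -0.18 to 0.07. The groups overlapped for Chchd3 (96.5 and 103 CPM), Samm50 (158 and 160 CPM) and Apool (17.5 and 16.6 CPM). Apoo divided its replicates, with MFI8 above vehicle by 0.08 in log2 CPM in replicate 1 and below it by -0.27 in replicate 2.

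Over the set, 3 of the 9 tested genes had a higher and 6 a lower fitted value with MFI8, with a median log2 fold change of -0.04 beside 0.00 over all tested genes. This median was 0.02 without vehicle replicate 1, -0.01 without MFI8 replicate 1 and -0.00 without MFI8 replicate 2. Genes past the adjusted threshold made up 0% of those tested in edgeR and 0 by limma on TPM, and the DESeq2 Wald test called 49 genes and 0 members. At an unadjusted p under 0.05 the count was 0 of 9 members in edgeR and 0 by DESeq2, against 9.86% of all genes in edgeR and 5.28% by DESeq2. Libraries did not overlap for 3 of 9 members (1 higher, 2 lower), against 40.2% of all genes. With the replicate number as a block, 720 genes (5.04%) and 0 members passed, the smallest adjusted p of a member being 0.22, for Chchd6. At an unadjusted p under 0.05 that block gave 1 member higher, Chchd6, with a 95% interval of 0.02 to 0.36 in log2 fold change, against 18.6% of all genes.

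**Figure D3:**
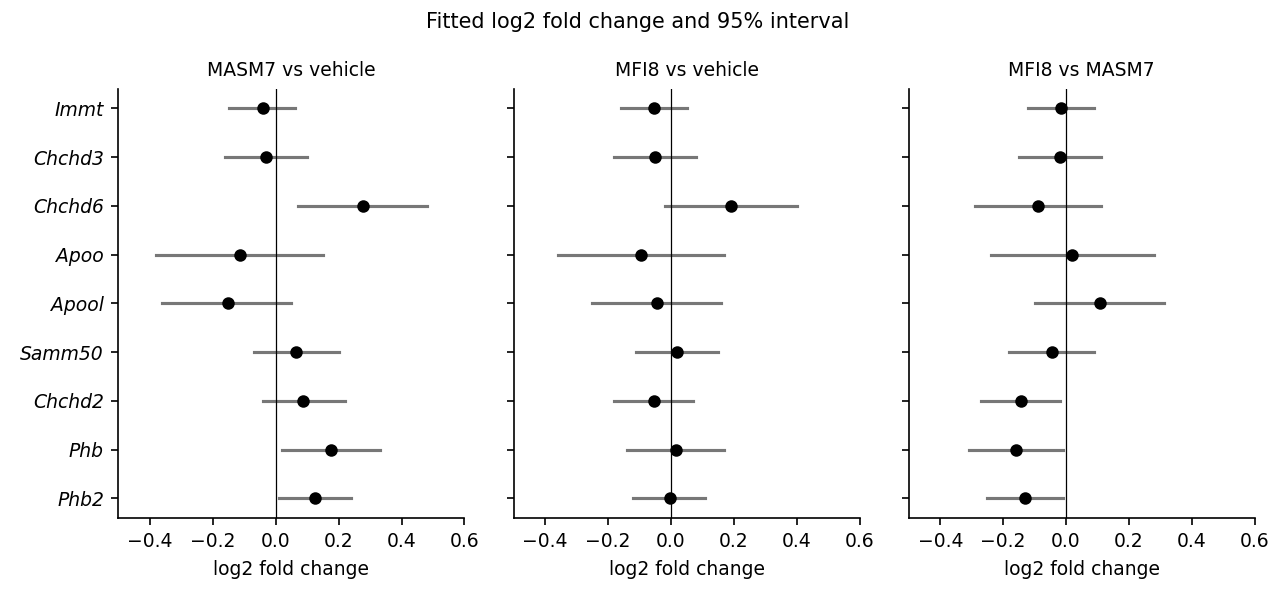
Fitted log2 fold change (points) with its 95% interval (lines) for the 9 tested genes in the 3 comparisons. The intervals of Chchd6, Phb and Phb2 lie above 0 for MASM7 against vehicle, and those of Chchd2, Phb and Phb2 lie below 0 for MFI8 against MASM7.

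Setting the compounds side by side, the prohibitins and Chchd2 were lower with MFI8 at 20 μM than with MASM7 at 1 μM in both libraries. Phb stood at 164 and 176 CPM with MFI8 against 180 and 199 with MASM7, a fold of 0.895 with a 95% interval of 0.805 to 0.995 (log2 fold change -0.16, edgeR adjusted p = 0.67). Phb2 stood at 305 and 303 against 324 and 340 CPM, a fold of 0.914 with a 95% interval of 0.843 to 0.992 (log2 fold change -0.13, edgeR adjusted p = 0.654). Chchd2 stood at 142 and 140 against 149 and 163 CPM, a fold of 0.906 with a 95% interval of 0.829 to 0.989 (log2 fold change -0.14, edgeR adjusted p = 0.649). Chchd6 overlapped between the compounds, with a log2 fold change of -0.09 (-0.18 without MASM7 replicate 1 and 0.00 without MASM7 replicate 2) and a 95% interval of -0.29 to 0.11. Apool was the member with higher values in both MFI8 libraries, by 0.11 in log2 fold change with a 95% interval of -0.10 to 0.31. Without MASM7 replicate 2, the log2 fold changes were -0.09 for Phb, -0.09 for Phb2 and -0.08 for Chchd2. With the GC and length offsets that of Phb was -0.11, with a 95% interval of -0.24 to 0.02. For Immt the MFI8 libraries were below the MASM7 libraries by a log2 fold change of -0.01, which turned to 0.00696 with library size alone.

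Of the 9 tested genes, 2 had a higher and 7 a lower fitted value with MFI8 than with MASM7, with a median log2 fold change of -0.05 beside -0.00 over all tested genes. It was 0.00 without MASM7 replicate 2 and -0.12 without MASM7 replicate 1. No gene passed the adjusted threshold in edgeR (0%) or in limma on TPM (0), and the DESeq2 Wald test called 27 genes and 0 members. At an unadjusted p under 0.05, 3 members were lower and 0 higher in edgeR and 2 were lower by DESeq2, against 7.18% of all genes in edgeR and 3.52% by DESeq2. With the GC and length offsets the edgeR count was 2 lower, Chchd2 and Phb2, against 7.61% of all genes. Libraries did not overlap for 5 of 9 members (1 higher, 4 lower), against 39.2% of all genes. With the replicate number as a block, 439 genes (3.07%) and 0 members passed, the smallest edgeR adjusted p of a member being 0.0913, for Phb. With that block and the GC and length offsets together, 676 genes (4.73%) passed, Chchd2 among them (log2 fold change -0.14, edgeR adjusted p = 0.0378). No other member was called under any setting run.

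The members differed in how far they varied among the 6 libraries. Immt had a range of 0.07 in log2 CPM from its lowest to its highest library, and 0.952% of tested genes had a smaller range. Chchd3 and Samm50 followed, with ranges of 0.14 and 0.15. Chchd6 had the widest range of the set, 0.39, beside a median of 0.30 over all tested genes, and Phb had 0.31. Apoo, Apool, Chchd2 and Phb2 lay between 0.20 and 0.27. Ranges were not compared at matched levels, and the members differ in counts, with 6980 to 9415 for Immt and 254 to 339 for Apoo. The part of counting noise in these ranges was not tested. Within each library the prohibitin pair kept a narrow ratio, with Phb2 at 1.29 to 1.4 times Phb in TPM, and the ratio of Immt to Chchd3 was 0.761 to 0.806. Per kilobase of the longest transcript, Phb2 was at 1.3 to 1.41 times Phb, and the ratio of Immt to Chchd3 turned to 1.33 to 1.4.

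Likeness of pattern was measured as the root mean square difference of log2 CPM, each gene centred on its own mean over the 6 libraries. The nearest member to Immt was Chchd3, at 0.0329, and the reverse held too, but among all tested genes Chchd3 ranked 447 for Immt and Immt ranked 332 for Chchd3. Phb2 was the nearest member to Phb, at 0.0454, and ranked 69 among all tested genes by that measure. Phb ranked 570 for Phb2, whose nearest member was Chchd2 at 0.0382. Nearest of all tested genes to Phb were Trappc4 at 0.015, Fbl at 0.0229 and Ruvbl2 at 0.0267, and the nearest to Phb2 was Irf2bp1 at 0.0123. These 6 libraries include the groups compared above, so the measure uses the same differences.

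Among the other genes of the pathway the fitted log2 fold changes lay between -0.17 and 0.23 with MASM7 and between -0.17 and 0.13 with MFI8. A total of 36 genes in 6 lists were tested, covering the remaining MICOS subunits, the sorting and bridging complex, prohibitin partners and proteases, membrane-shaping proteins, cardiolipin enzymes, and intermembrane space import with other twin CX9C proteins. With MASM7, 22 were higher and 14 lower, with a median log2 fold change of 0.02, and 0 passed the adjusted test in edgeR or DESeq2. At an unadjusted p under 0.05, 5 were higher and 2 lower, beside the 10.2% of all genes that passed. Of the 36, 16 were above and 8 below both vehicle libraries in both MASM7 libraries. The groups did not overlap for 42.8% of all genes. The smallest p belonged to Pgs1, the enzyme of phosphatidylglycerol phosphate synthesis on the way to cardiolipin, with 121 and 128 CPM against 109 and 106 with vehicle. Its log2 fold change was 0.21 (edgeR adjusted p = 0.466, and 0.0155 with the replicate block). Next was Stoml2, a prohibitin-binding scaffold protein, with 155 and 162 CPM against 139 and 139, a log2 fold change of 0.19 (edgeR adjusted p = 0.468, and 0.0204 with the block). Tmem11, a membrane protein that binds MICOS, also passed with the block, at 58.7 and 62.4 CPM against 54.7 and 48.6 (log2 fold change 0.23, edgeR adjusted p = 0.0323 with the block). It lies outside the rule for named genes and is given because it completes the 3 calls, beside the 3.88% of all genes called under that fit. None of the 3 passed once the GC and length offsets were added to the block, with log2 fold changes of 0.13 for Pgs1, 0.12 for Stoml2 and 0.15 for Tmem11 (edgeR adjusted p = 0.094, 0.12 and 0.155).

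Lower with MASM7 were Yme1l1, a protease that cleaves OPA1, and Atp5k, a subunit of the ATP synthase dimer. Yme1l1 stood at 213 and 199 CPM against 224 and 232 with vehicle, a log2 fold change of -0.15 (edgeR adjusted p = 0.477). Atp5k stood at 78.5 and 76.4 CPM against 88.3 and 82.8, a log2 fold change of -0.14 (edgeR adjusted p = 0.477). Both were lower in each MASM7 library than in either vehicle library. With the GC and length offsets the log2 fold change was -0.03 for Yme1l1 and -0.16 for Atp5k.

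With MFI8, 17 of the 36 were higher and 19 lower, with a median log2 fold change of -0.01 and 0 past the adjusted test in edgeR or DESeq2. At an unadjusted p under 0.05, 1 was higher and 1 lower, beside 9.86% of all genes. Yme1l1 stood at 196 and 210 CPM, a log2 fold change of -0.17 (edgeR adjusted p = 0.412, and 0.0352 with the replicate block, under which 5.04% of all genes passed). Parl, the rhomboid protease of the inner membrane, stood at 66.4 and 67.7 CPM against 72.8 and 72.5 with vehicle, a log2 fold change of -0.12 (edgeR adjusted p = 0.538). Pgs1 was higher at 120 and 116 CPM, by 0.13 in log2 fold change (edgeR adjusted p = 0.474). Spg7, a subunit of the m-AAA protease that prohibitin rings surround, stood at 61.2 and 54.9 CPM against 54.2 and 52.9, a log2 fold change of 0.11 (edgeR adjusted p = 0.608). These 4 separated from the vehicle libraries, as did 15 of the 36 in all (5 higher, 10 lower), against 40.2% of all genes. The value of Spg7 was 0.04 without MFI8 replicate 1 and 0.19 without MFI8 replicate 2. With the GC and length offsets the log2 fold changes were -0.09 for Yme1l1, -0.09 for Parl, 0.07 for Pgs1 and 0.06 for Spg7, and with the block as well Yme1l1 no longer passed (edgeR adjusted p = 0.147). For MFI8 against MASM7, 11 of the 36 were higher and 25 lower, with a median log2 fold change of -0.05. In edgeR 0 passed the adjusted test. With the block and the offsets together 2 were called lower, 1 of the sorting and bridging complex and 1 prohibitin partner. Under that fit 4.73% of all genes were called.

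Neither MICOS subunit outside the set passed the test. Micos10, which bends the membrane at crista junctions, stood at 81.9 and 78.1 CPM in the vehicle libraries, at 79.2 and 81.4 after MASM7 and at 80.3 and 72.6 after MFI8. Micos13, which links that subunit to the rest of MICOS, stood at 23.3 and 20.3, 23.7 and 23.5, and 25.7 and 21.5 CPM in the same order. The groups overlapped for Micos10 with either compound and for Micos13 with MFI8, while Micos13 was above both vehicle libraries with MASM7 (log2 fold change 0.11, 95% interval -0.12 to 0.35). That value was 0.02 without vehicle replicate 2 and 0.22 without vehicle replicate 1. By list, the median log2 fold change with MASM7 ran from -0.02 for membrane-shaping proteins to 0.11 for the sorting and bridging complex, and with MFI8 from -0.05 for prohibitin partners to 0.02 for these MICOS subunits. With the GC and length offsets the median with MASM7 became -0.02 for the sorting and bridging complex and 0.02 for membrane-shaping proteins. With MFI8 it then ran from -0.05 for the sorting and bridging complex to 0.03 for these MICOS subunits, with -0.03 for prohibitin partners.

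**Figure D4:**
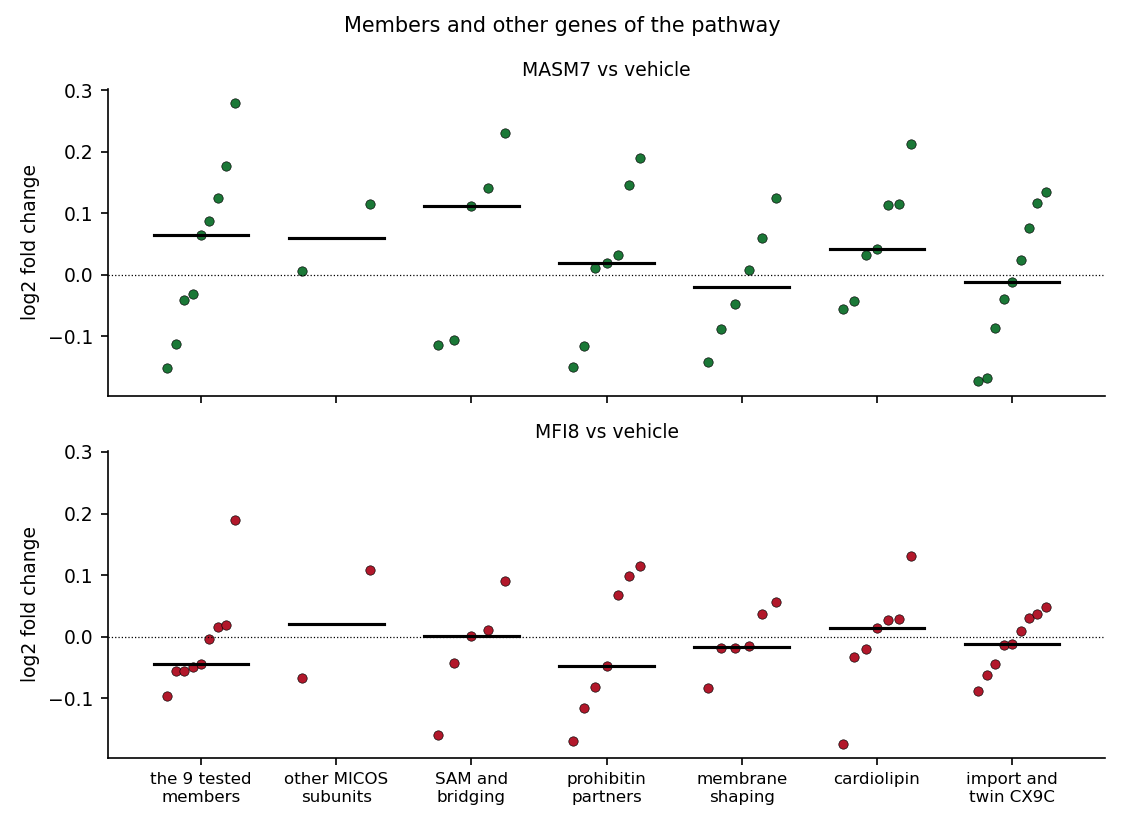
Fitted log2 fold change against vehicle of the 9 tested members and of the 36 other pathway genes by list (points), with the median of each list (horizontal bars), for MASM7 and MFI8. The members span -0.15 to 0.28 with MASM7 and -0.10 to 0.19 with MFI8, and the lists overlap throughout.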

How the data were processed

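RNA was extracted from MEFs, and libraries of polyA RNA were made with the TruSeq kit. Per the study's methods, bcl2fastq, Trimmomatic, STAR (genome GRCm38) and featureCounts, which counted exonic reads per gene, were used in that order. The authors deposited raw counts, a normalized signal equal to those counts over a DESeq2 size factor (not used for tests), and TPM. The annotation release and strand setting were not given in the sources used here.

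Raw counts of all 6 libraries were fitted in edgeR 4.0.16 (R 4.3.3) with TMM scaling, filterByExpr, which left 14290 genes, and 1 coefficient per group. Tests were two-sided quasi-likelihood F tests, Benjamini-Hochberg adjusted over all genes tested and called at 0.05. Standard errors and 95% intervals came from the same fit. Single-library log2 CPM added a prior count of 2. Alternatives were another scaling, other filters, only the groups compared, the replicate block, DESeq2 1.42.0, limma 3.58.1 on log2(TPM + 1), each library left out, and, added after the data were seen, offsets for GC content and length (lowess span 0.3, values for 97.9% of the genes tested). With 2 libraries against 2, an exact permutation test cannot give a p below 0.333 and was not run. The script was tested on simulated data.

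The replicate numbers came from the titles, and no source names a shared batch. Differences between replicates 2 and 1 were correlated between groups across the 14290 genes. Pearson's r was 0.188 for vehicle and MASM7, 0.152 for vehicle and MFI8 and 0.165 for MASM7 and MFI8. Over the 7145 more highly expressed genes it was 0.508, 0.621 and 0.538. Genes are not independent, and 2 replicates give 1 such correlation for each pair of groups. Pairing by number was fitted as the replicate block, an alternative, and the reported fit leaves it out. Standard errors, intervals and adjusted p given without mention of the block therefore ignore any pairing. The block gave every tested member a smaller standard error. For Phb with MASM7 against vehicle it was 0.0516 in place of 0.0687.

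The members and the lists of other genes were chosen with earlier results of these data known. All members were named, with Mfn1, Mfn2, the MICOS subunits outside the set and, for each compound, the 2 higher and 2 lower genes of the lists with the smallest p. Promoters came from RefSeq (GRCm38.p6), and positions, GC content and lengths from GENCODE vM21. The nearest genes of Phb and Phb2 in pattern were also named, not all of which are reported here.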

Additional observations from a re-analysis of the deposited data

How the results depend on the processing

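No member had an adjusted p under 0.05 under any alternative run, leave-one-out fits included, except Chchd2 for MFI8 against MASM7 with the replicate block and GC and length offsets, where 1 member was called. Calls over all genes, 0 in each comparison, moved more, in the order MFI8 against vehicle, MASM7 against vehicle and MFI8 against MASM7. They were 720, 554 and 439 with the replicate block, 595, 152 and 676 with the block and the offsets, 256, 127 and 168 with the filter of at least 1 count in any library, and 49, 2 and 27 with DESeq2. With only the groups compared, 1 gene was called for MASM7 against vehicle and 2 for MFI8 against MASM7. With 1 library left out, the counts ran from 0 to 26, from 0 to 2 and from 0 to 24, and the highest for MFI8 (26 and 24) came without MFI8 replicate 1. The lone library of a group was then assumed to vary like the other groups. Added to the reported fit, the replicate block changed no call of a member. Added to the offsets, it changed that of Chchd2 for MFI8 against MASM7.

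Over the members, the median log2 fold change for MFI8 against vehicle was -0.0329 with library size alone, -0.0147 with limma on TPM, -0.0251 with the offsets, -0.0259 with the block and the offsets and -0.0253 in the replicate 2 libraries alone, and ran from -0.0441 to 0.0153 with 1 library left out, the highest without vehicle replicate 1. For MFI8 against MASM7 it was -0.13 in the replicate 2 libraries alone and ran from -0.117 to 0.00478 with 1 library left out. For MASM7 against vehicle it ran from -0.0108, without MASM7 replicate 2, to 0.136, without MASM7 replicate 1.

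Several log2 fold changes turned sign. With the offsets, without and with the replicate block, Immt was 0.0595 and 0.0599 for MASM7 against vehicle and 0.0139 and 0.014 for MFI8 against vehicle. In the same pair of fits for MFI8 against vehicle, Apool was 0.0307 and 0.0326, Phb -0.0263 and -0.0259 and Samm50 -0.0251 and -0.026. Chchd3 for MFI8 against MASM7 was 0.00177 and 0.00142 in that pair, 0.00373 with library size alone, 0.0242 with limma on TPM and 0.00236 in the replicate 2 libraries alone. For the same comparison Immt was 0.00696 with library size alone and 0.0284 with limma on TPM. Phb2 for MFI8 against vehicle was 0.00673 with library size alone, 0.00342 with the filter of at least 1 count, 0.023 with limma on TPM and 0.0327 in the replicate 2 libraries alone. For MASM7 against vehicle, with library size alone, limma on TPM and the offsets without and with the block, Mfn2 was -0.000995, -0.00704, -0.0433 and -0.0433, and Micos10 was -0.00507, -0.0108, -0.0275 and -0.027. In the replicate 1 libraries alone, Apoo was 0.0832, Phb -0.1 and Samm50 -0.00257 for MFI8 against vehicle, and Samm50 was -0.0223 for MASM7 against vehicle and 0.0197 for MFI8 against MASM7. In the replicate 2 libraries alone, Apoo was -0.13 for MFI8 against MASM7.

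With 1 library left out, the values that crossed 0 for MFI8 against vehicle ranged from -0.199 to 0.0128 for Apoo, -0.1 to 0.0153 for Apool, -0.0482 to 0.0849 for Phb, -0.0444 to 0.0395 for Phb2, -0.138 to 0.00625 for Micos10 and -0.0208 to 0.24 for Micos13. For MASM7 against vehicle they ranged from -0.076 to 0.0146 for Chchd3, -0.0108 to 0.136 for Samm50, -0.02 to 0.0397 for Mfn2 and -0.0275 to 0.0394 for Micos10. For MFI8 against MASM7 they ranged from -0.0848 to 0.126 for Apoo, -0.0638 to 0.0282 for Chchd3, -0.176 to 0.00478 for Chchd6 and -0.117 to 0.0302 for Samm50. Among the other genes that the results name, they ranged from -0.02 to 0.04 for Parl for MASM7 against vehicle, and for MFI8 against MASM7 from -0.13 to 0.12 for Micos13, -0.14 to 0.00 for Micos10, -0.07 to 0.03 for Yme1l1 and -0.00 to 0.07 for Mfn1. The cause of these turns was not tested. Chchd10 had at most 9 counts in a library, so differences in it were not detectable, and groups held 2 libraries.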
